A study of Mus musculus with 4 samples.

Results

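The genes described here are 10 targets and partners of ATF4, the transcription factor through which cells answer a shortage of amino acids. Atf4, Cebpg, Ddit3, Trib3, Chac1, Asns, Psat1, Phgdh, Sesn2 and Ddit4 were chosen by symbol, and all 10 were found among the 31054 features of every matrix. Their UMI counts, in which each molecule is counted once, were read in single-cell RNA libraries of lung from male C57BL/6 mice, 19 months old when treatment began. The mice were given BPTES, a small-molecule inhibitor of the glutaminase GLS1, or its vehicle DMSO for 1 month, and each group had 2 libraries. For each library, lung was digested with Liberase for 1 hour, and 9000 CD45+ and 20000 CD45- cells sorted from 1 tissue were combined. No group was young or untreated, and the dose and route of BPTES are not given in the sources used here. The labels do not say whether a library stands for 1 animal, so the p-values below measure only the spread between these libraries, which may be technical.

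Uncharged tRNA, unfolded protein in the endoplasmic reticulum, haem shortage and viral RNA each activate a kinase that phosphorylates the initiation factor eIF2α. General translation then falls while the Atf4 message is translated more, so the ATF4 protein can increase with little change of its mRNA, and only mRNA was measured here. ATF4 pairs with C/EBP proteins such as CEBPG and binds a composite element in the genes for amino acid transport and synthesis. Glutaminase makes glutamate from glutamine, and among the enzymes of the set ASNS takes nitrogen from glutamine and PSAT1 from glutamate.

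The composite element was searched as TGATGNAA on both strands, with no other motif searched, in the 300 bases from 250 before to 50 after each start site of RefSeq on GRCm38.p6. All 10 genes had an entry. The letters were present in 3 of them, Chac1, Trib3 and Asns, and in 4.51% of the 27025 genes with such a window (3.97% of all 32851 windows). A match is a description and not evidence of binding, and its absence says only that these letters are not in the window. A site is shown for each of the 3 members with a match. Each line gives 30 bases on the strand of the gene, with the match in capitals. The Chac1 site is chr2:119351038-119351067 on the plus strand. The Trib3 site is chr2:152344028-152344057 and the Asns site chr6:7693214-7693243, both on the minus strand. The match is a reverse complement in Chac1 and Trib3, and its first base lies at -193 and +15 from the start site, respectively. In Asns it reads forward from -23.
Chac1: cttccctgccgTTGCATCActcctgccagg
Trib3: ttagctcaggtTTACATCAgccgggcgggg
Asns: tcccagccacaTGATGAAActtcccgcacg

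The libraries held between 260346570 and 342107092 UMIs, and 14407 to 18860 cells per library remained after filtering, with medians of 13920.5 to 15751.5 UMIs per cell. Any 2 libraries shared 75 to 121 cell barcodes. The cells formed 39 clusters, of which 6 with 15.4% of the cells stayed unnamed. A class is called "-like" where only its RNA markers name it, and 21 classes had at least 20 cells in every library. Classical monocyte-like cells were 1 cluster of 484 and 669 cells in BPTES replicates 1 and 2 and of 478 and 606 in DMSO replicates 1 and 2. It was led by F13a1, Ccr2 and Ms4a6c, and all 6 of the class's markers were detected. Non-classical monocyte-like cells, led by Adgre4, Cd300e and Fcgr4, numbered 685, 617, 318 and 788 in the same order.

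In classical monocyte-like cells, 1 of the 10 genes changed with BPTES. Cebpg (chr7:35046422-35056566), whose protein is a partner of ATF4, rose. The other members tested there stayed short of the threshold, including Atf4 itself. Each library's cells of the class were summed, and the sums were compared with edgeR's quasi-likelihood test, adjusted by Benjamini-Hochberg over all 12173 genes tested. Of these genes 15 were called at an adjusted p under 0.05, or 0.123%. Of the 10 members 8 passed the filter on low counts and 1 was called. Levels in this comparison are CPM of the summed UMIs, that is, counts scaled to a common library total within the class.

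Cebpg stood at 88.9 and 99.1 CPM in BPTES replicates 1 and 2 and at 49.7 and 54.9 CPM in DMSO replicates 1 and 2, from 1119, 1665, 696 and 906 UMIs. Both BPTES libraries lay above both DMSO libraries, and the gap between groups exceeded the range within either. The means were 94.0 ± 7.18 and 52.3 ± 3.70 CPM (SD, n = 2 each), a log2 fold change of 0.85 (SE 0.0912, adjusted p = 0.0412 by edgeR's quasi-likelihood test). The adjusted p was 0.0528 without BPTES replicate 1, 0.0799 without BPTES replicate 2 and 0.0506 without DMSO replicate 1, so the call was lost each time, and it was 0.00573 without DMSO replicate 2, where 2.19% of all genes were called. The call was also lost with doublets kept (adjusted p = 0.0961) and with the replicate number as a block (adjusted p = 0.149). Over 15 alternative settings the log2 fold change stayed between 0.77 and 0.92, and Cebpg was called in 10 of them. These 10 are not separate checks. Naming by marker score alone gave the same values for this class. The other seeds, the other resolutions and the lower mitochondrial limit gave adjusted p of 0.0357 to 0.0432 by edgeR's quasi-likelihood test.

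**Figure D1:**
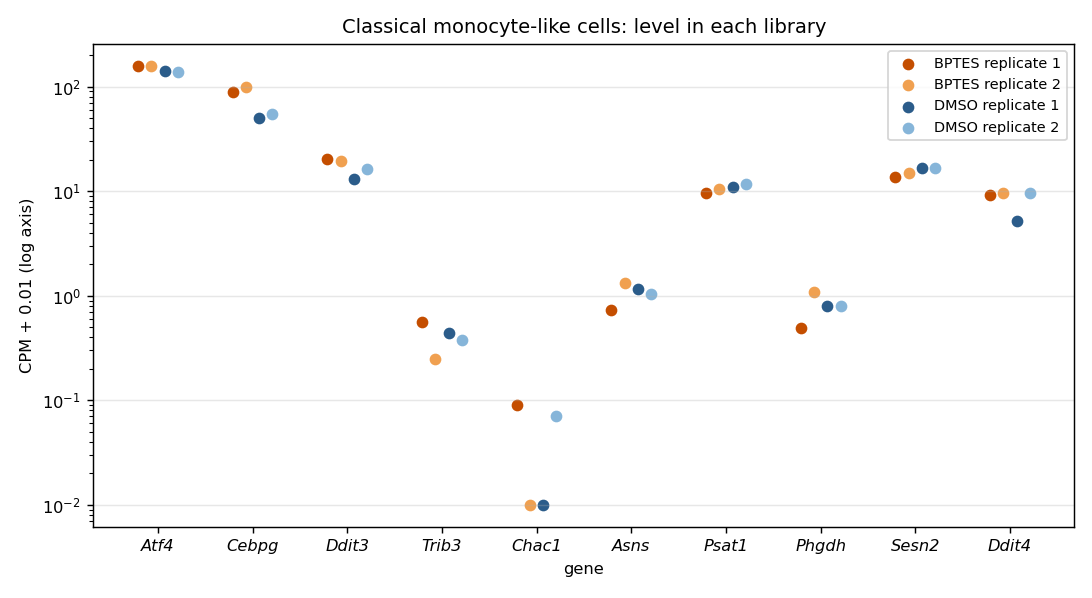
Level of each of the 10 genes in classical monocyte-like cells, 1 point per library (2 BPTES, 2 DMSO), as CPM scaled within the class plus 0.01 on a log axis; points have no error bars because each is 1 library. The Cebpg points of both BPTES libraries (88.9 and 99.1 CPM) lie above those of DMSO (49.7 and 54.9 CPM), while Trib3 and Chac1 lie near the bottom of the axis.

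The difference was also present in the share of cells. After every cell was thinned to 5000 UMIs, Cebpg was found in 33.6% and 35.5% of BPTES cells and in 21.2% and 23.2% of DMSO cells. Without thinning the shares were 82.0% and 83.0% against 65.7% and 67.7%, at medians of 25630 and 25115 UMIs per cell for BPTES and 29139 and 27267 for DMSO. The BPTES cells were thus the shallower ones. Thinning left out 11, 7, 15 and 28 shallower cells, in the order BPTES replicates 1 and 2 and DMSO replicates 1 and 2. No class of the 21 lacked Cebpg, and T-like cells, where its level was lowest, held it in 15.1% to 16.02% of thinned cells at medians of 15583 to 16079 UMIs. The exact two-sided permutation test gave p = 0.333 for the thinned shares, the smallest p that 2 libraries against 2 allow. The 2 cells richest in Cebpg carried 1.44% to 3.02% of its UMIs in a library, so the level did not come from a few cells.

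Other measures differed between the same monocyte sums, and their part in the Cebpg result was not tested. Of 19 genes known to respond to tissue dissociation, 17 had a positive log2 fold change and 16 had both BPTES libraries above both DMSO libraries, against 24.0% of all genes tested. None of the 19 was called by edgeR's quasi-likelihood test, and 16 had an unadjusted p under 0.05, as 15.7% of all genes tested did. Their median log2 fold change was 0.41, beside -0.00392 over all genes tested. Their summed level was 11040 and 10232 CPM with BPTES and 7321 and 8159 CPM with DMSO. Of 32 marker lists of other classes, 2 had a higher sum with BPTES without overlap, 12 a lower one, and 18 overlapped. Summed markers of AT2 cells were 235 and 184 CPM against 57.7 and 131 CPM, and those of neutrophils 143 and 144 against 170 and 164. In their own classes these marker lists summed to 206432 and 94002 CPM. Alveolar macrophage markers were lower with BPTES without overlap, at 585 and 648 CPM against 737 and 1065 CPM. In their own class they summed to 10033 CPM. Club cell markers summed to 674 CPM in BPTES replicate 2 and to 16.3 to 51.7 CPM in the other 3 libraries. The monocyte markers themselves summed to 5074 and 5114 CPM with BPTES and 4994 and 5027 CPM with DMSO.

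The remaining transcription factors of the set had smaller differences in these monocytes. Atf4 (chr15:80255184-80257545) was at 157.8 and 157.1 CPM with BPTES and 141.1 and 138.0 CPM with DMSO, a log2 fold change of 0.17 (SE 0.0689, adjusted p = 0.293). Ddit3 (chr10:127290793-127296291), which encodes the pro-apoptotic factor CHOP, was at 20.3 and 19.4 CPM against 13.1 and 16.2 CPM, a log2 fold change of 0.43 (SE 0.134, adjusted p = 0.215). For both genes the BPTES libraries lay above the DMSO libraries without overlap. Neither was called.

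Among the brakes on the growth kinase complex TORC1, Sesn2 (chr4:132492804-132510456), a leucine sensor, had 13.6 and 14.8 CPM with BPTES and 16.7 and 16.5 CPM with DMSO. Its log2 fold change was -0.22 (adjusted p = 0.413), opposite in sign to that of Cebpg. Ddit4 (chr10:59949675-59951770), which encodes the TORC1 inhibitor REDD1, had 9.21 and 9.52 CPM against 5.14 and 9.70 CPM, and the groups overlapped (log2 fold change 0.32, adjusted p = 0.622, and -0.0492 without DMSO replicate 1).

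The enzymes showed no shared direction. Psat1 (chr19:15905123-15925059), the aminotransferase of serine synthesis, had 9.53 and 10.4 CPM with BPTES and 11.1 and 11.6 CPM with DMSO, a log2 fold change of -0.18 (adjusted p = 0.578). Asns (chr6:7675165-7693209), which makes asparagine, and Phgdh (chr3:98313171-98339969), the entry enzyme of serine synthesis, overlapped between groups, with log2 fold changes of -0.06 and 0.02. The pseudokinase gene Trib3 (chr2:152337425-152344060), whose product holds ATF4 back, gave 7, 4, 6 and 6 UMIs in the 4 libraries. Chac1 (chr2:119351242-119354326), whose product degrades glutathione, gave 1, 0, 0 and 1. Both were too rare to be tested in this class. In all, 3 members lay above DMSO without overlap (Atf4, Ddit3 and Cebpg) and 2 below (Sesn2 and Psat1), beside 24.0% and 23.6% of all genes tested.

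No gene of the wider ATF4 pathway passed the test beside Cebpg. Of 56 further pathway genes found in the files (kinases and phosphatases of eIF2α, partner factors, transporters, enzymes, tRNA synthetases and secreted factors), 45 were tested in classical monocyte-like cells. Of these, 0 were called by edgeR's quasi-likelihood test, beside 0.123% of all genes tested. An unadjusted p under 0.05 was reached by 6, beside 15.7% of all genes tested. Log2 fold changes were positive for 20 and negative for 25, with a median of -0.05. Among all genes tested 49.2% were positive. DESeq2 called 1 of them, Atf3, beside 2.76% of all genes given an adjusted p. Without DMSO replicate 2 edgeR called 4, Atf3, Cebpb, Mthfd2 and Nupr1, beside 2.19% of all genes. They are named because they were called there.

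Atf3, a stress-induced factor of the same family that is also an immediate early gene, had the largest positive difference among pathway genes of at least 10 CPM. Atf3 is also 1 of the 19 dissociation genes and is counted in both lists. It was at 799 and 684 CPM with BPTES and at 303 and 446 CPM with DMSO, a log2 fold change of 0.98 (adjusted p = 0.0791). The groups did not overlap, and both DMSO libraries were far apart. Mthfd2, a mitochondrial one-carbon enzyme, and Eif2ak2, the kinase that senses viral RNA, followed with log2 fold changes of 0.46 and 0.40. Mthfd2 was at 27.4 and 25.8 CPM with BPTES and 14.1 and 24.3 CPM with DMSO, so its value and place rest mostly on DMSO replicate 1. On the negative side stood Slc7a11, the cystine carrier (-0.25), Jdp2, a repressor of the AP-1 family (-0.17), and Slc38a2, a carrier of neutral amino acids (-0.16). The groups overlapped for Slc7a11 (67.1 and 99.8 CPM with BPTES, 94.8 and 103.7 CPM with DMSO) and for Jdp2, but not for Slc38a2. For both overlapping genes BPTES replicate 1 was the lowest library. None of these 5 was called. Of 15 chaperones of the endoplasmic reticulum 13 were positive, beside 49.2% of all genes tested, with a median log2 fold change of 0.21 and 0 called. An unadjusted p under 0.05 was reached by 4, beside 15.7% of all genes tested. Their summed level was 2095 and 2868 CPM with BPTES and 1964 and 2247 CPM with DMSO, so the groups overlapped and BPTES replicate 2 was the highest library. Their best known member, Hspa5, was at 633 and 930 CPM against 546 and 627 CPM (log2 fold change 0.41, adjusted p = 0.296), with BPTES replicate 1 close to DMSO replicate 2.

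Cebpg in non-classical monocyte-like cells, the patrolling monocytes, was at 65.2 and 66.1 CPM with BPTES and 42.2 and 52.0 CPM with DMSO. The BPTES libraries were again the higher ones, with a log2 fold change of 0.46 (SE 0.113, adjusted p = 0.399), and the gene was not called. In this class 0 of 8 tested members were called, beside 6 of 11840 genes (0.0507%). Atf4 and Ddit3 overlapped between groups here (log2 fold changes 0.09 and 0.13). Ddit4 was at 29.7 and 28.9 CPM against 22.5 and 26.7 CPM (log2 fold change 0.23, adjusted p = 0.748).

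Whether BPTES acted on Cebpg differently in 2 classes was tested directly with an interaction term. The effect in classical monocyte-like cells was larger than in non-classical monocyte-like cells, with a log2 difference of 0.38 (SE 0.118, adjusted p = 0.380). Against neutrophil-like cells the difference was 0.77 (SE 0.184, adjusted p = 0.141), and against general capillary endothelial-like cells 0.51 (SE 0.0959, adjusted p = 0.0696). None of the 3 differences passed the threshold, though the one against neutrophil-like cells did without BPTES replicate 1 (adjusted p = 0.0435, with 0.535% of all genes called). With no filter on low counts the Cebpg differences against neutrophil-like and general capillary endothelial-like cells passed (adjusted p = 0.0122 and 0.00613), as did those of Sesn2 and Psat1 against the latter. Without the filter 1.38% and 4.90% of all genes were called in these 2 tests. In the test as described the change is not shown to be particular to classical monocyte-like cells. Across all genes the 3 tests called 0.157%, 0.0244% and 0.247%, and 0 members were called in any. Sesn2 came nearest of the others, with a difference of -0.73 (adjusted p = 0.111) against general capillary endothelial-like cells.

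Cebpg was on the higher side with BPTES in most other classes too. In 18 of the 19 classes tested, each with 50 cells or more per library, its log2 fold change was positive, with a median of 0.18. With 1 library left out 15 to 17 classes were positive. The BPTES libraries lay above the DMSO libraries without overlap in 9 and below in 1, where 22.3% and 22.5% of all pairs of gene and class lay above and below. The classes come from the same 4 libraries and are not independent of each other. An unadjusted p under 0.05 was reached in 7 classes, all with higher values for BPTES, beside 12.8% of all pairs of gene and class. The adjusted p passed the threshold in classical monocyte-like cells only. No gene at all was called in general capillary or venous endothelial-, B-, T-, adventitial fibroblast-, pericyte- or NK-like cells. A missing call there is therefore not particular to Cebpg. In general capillary endothelial-like cells 22.2% of 15262 genes had an unadjusted p under 0.05. Over all 19 classes, 1 of 150 tested pairs of member and class was called, against 500 of 236549 pairs for all genes (0.211%).

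After the monocytes, the interstitial macrophage-like cells had the next largest Cebpg difference, with 84.7 and 92.5 CPM against 55.5 and 75.1 CPM (log2 fold change 0.42, adjusted p = 0.236). Its size rests in part on DMSO replicate 1, the lowest library, and conventional dendritic 2-like cells followed closely (0.39). General capillary endothelial-like cells, the largest class, had 95.2 and 106.1 CPM against 75.3 and 85.2 CPM (0.33, adjusted p = 0.136), from 13134 UMIs, and Cebpg was called there without BPTES replicate 1 (0.41, adjusted p = 0.0254) and with the replicate block (adjusted p = 0.0142). Those settings called 12.4% and 11.5% of all genes in the class. The groups did not overlap in interstitial macrophage-like or general capillary endothelial-like cells. Neutrophil-like cells had 42.5 and 35.4 CPM against 32.5 and 42.2 CPM, and T-like cells 33.7 and 33.8 against 32.7 and 34.1 CPM, with overlap in both. NK-like cells alone had lower values with BPTES (43.6 and 40.9 against 57.2 and 45.05 CPM, log2 fold change -0.28, adjusted p = 0.693).

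**Figure D2:**
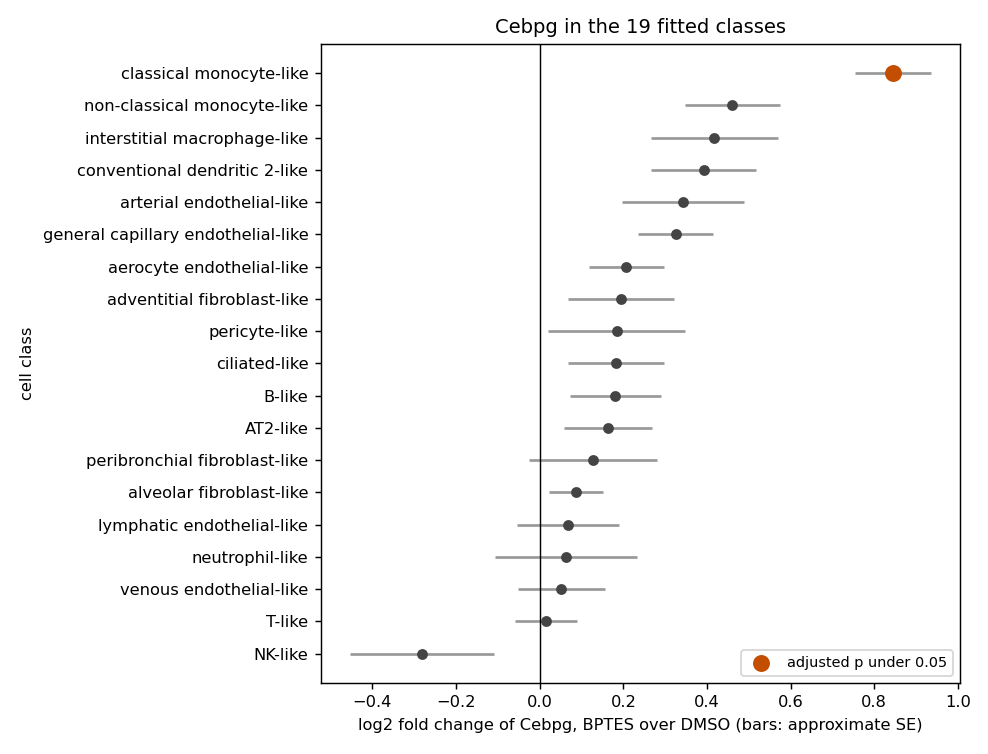
Log2 fold change of Cebpg, BPTES over DMSO, in the 19 fitted classes (horizontal axis), with bars of 1 approximate SE, 2 libraries per group. Classical monocyte-like cells (0.85, marked) stand at the top, and 18 of the 19 points lie to the right of 0.

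The other members had no call in any class in the test as described. Asns was called in 2 classes when a library was left out, and both values rested on 1 library. In general capillary endothelial-like cells its log2 fold change was 0.28 with all libraries, 0.53 without BPTES replicate 1 (adjusted p = 0.0305, with 12.4% of all genes called) and -0.00904 without BPTES replicate 2. In AT2-like cells it was -0.74 with all libraries, -1.27 without DMSO replicate 2 (adjusted p = 0.0348, with 1.46% of all genes called) and -0.0909 without DMSO replicate 1, whose 12.6 CPM stood apart from 4.89 to 5.57 CPM in the others. With no filter on low counts 8 pairs of member and class were called, beside 3.04% of all pairs of gene and class. Of the 8, 4 were of Cebpg and the others were Ddit3 in classical monocyte-like, Asns in adventitial fibroblast-like, Psat1 in general capillary and Ddit4 in venous endothelial-like cells. Atf4 stayed close to no difference, with log2 fold changes between -0.18 (neutrophil-like) and 0.25 (peribronchial fibroblast-like), 9 positive and 10 negative. Ddit3 was positive in 13 of 19 classes. It lay above DMSO without overlap in 7 and below in 2, beside 22.3% and 22.5% of all pairs of gene and class. Its unadjusted p was under 0.05 in 2 classes with higher and 2 with lower values for BPTES. Ddit4 was positive in 15 of 19 classes and reached an unadjusted p under 0.05 in 5, each time higher with BPTES, beside 12.8% of all pairs of gene and class. Its largest difference was in peribronchial fibroblast-like cells, with 15.3 and 12.6 CPM against 9.77 and 5.70 CPM (0.86, adjusted p = 0.410), where the groups did not overlap. Trib3 ran the other way, negative in 10 of the 11 classes in which it could be tested, with values down to -0.59 in adventitial fibroblast-like cells, where it was 0.0826 without DMSO replicate 2. With a library left out 7 or 8 of the 11 were negative.

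The synthetic enzymes had no firm balance of signs. Asns was negative in 9 of the 14 classes tested, Phgdh in 8 of 12 and Psat1 in 7 of 14, and among the classes tested Asns lay above DMSO without overlap in 0 and below in 5, beside 22.3% and 22.5% of all pairs of gene and class. With a library left out the negative classes numbered 7 to 12 for Asns, 5 to 10 for Phgdh and 6 to 9 for Psat1, so the balance turned for Phgdh without DMSO replicate 2 (5 negative, 7 positive). Pericyte-like cells, the mural cells of capillaries, had 2.48 and 2.22 CPM of Asns with BPTES and 5.00 and 9.86 CPM with DMSO (log2 fold change -1.69, SE 0.491, adjusted p = 0.627). These rest on 9, 9, 11 and 34 UMIs, and without DMSO replicate 2 the log2 fold change was -1.08. Adventitial fibroblast-like cells had 2.25 and 4.57 CPM against 7.62 and 7.63 CPM (-1.10, SE 0.337, adjusted p = 0.311). Phgdh in T-like cells was at 29.8 and 28.6 CPM against 34.5 and 37.8 CPM (-0.31, SE 0.0822, adjusted p = 0.279). In all 3 cases the BPTES libraries were the lower ones without overlap, and none was called. In these 3 classes 0 of 11932, 14648 and 13510 genes tested were called, so the missing calls are not particular to these members.

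Sesn2 had opposite signs in different classes. In neutrophil-like cells, where its level is highest, it was at 116 and 129 CPM with BPTES and 162 and 143 CPM with DMSO on the scale within that class (log2 fold change -0.31, SE 0.106, adjusted p = 0.179). General capillary endothelial-like cells had 5.10 and 6.01 CPM against 3.97 and 3.91 CPM (0.49, SE 0.162, adjusted p = 0.166). Scaled within the class, the groups did not overlap in either class, and neither difference was called. Without scaling they overlapped in neutrophil-like cells. There, 678 of 4958039 UMIs in BPTES replicate 2 were a larger share than 724 of 5438215 in DMSO replicate 2. No test of the difference between neutrophil-like and general capillary endothelial-like cells was made.

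The wider lists outside the monocytes are given by counts. The 56 pathway genes gave 899 pairs with the 19 classes and 0 calls by edgeR, with 140 at an unadjusted p under 0.05 against 12.8% of all pairs of gene and class. Calls numbered 5 to 36 with 1 library left out, the highest without BPTES replicate 1, where 2.12% of all pairs were called. They numbered 58 with no filter (3.04% of all pairs) and 14 by DESeq2 (1.64%). The 15 chaperones gave 284 pairs, 0 calls by the same test and 73 at an unadjusted p under 0.05, beside 12.8% of all pairs. Their median log2 fold change was positive in each of the 19 classes, from 0.05 in neutrophil-like to 0.35 in alveolar fibroblast-like cells. Medians over all genes tested were -0.0122 to 0.0027. In every class but neutrophil-like cells BPTES replicate 2 had their highest summed level, and the classes share the same libraries. The 19 dissociation genes gave 359 pairs, 139 of them at an unadjusted p under 0.05, with 2 higher and 8 lower calls beside 0.211% of all pairs called. Hspa1b (2.13) and Hspa1a (1.05), which encode heat shock chaperones, rose in interstitial macrophage-like cells. The immediate early gene Egr1 (-1.14), Socs3 (-0.58), Ier3 and Btg2 fell in neutrophil-like cells. Zfp36 (-0.49) and Junb (-0.48) fell in aerocyte endothelial-like, Ier3 (-0.58) in lymphatic endothelial-like and Socs3 (-0.99) in AT2-like cells. In classical monocyte-like cells 17 of the list's 19 genes were positive, with 0 called. With doublets kept, 0 of the chaperone and dissociation genes were called in any class.

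Levels across the 21 classes were described on another scale, CPM scaled between classes with TMM, and as mean ± SD over all 4 libraries. Each member had its own order of classes, and most neighbours in an order overlapped. The scale matters for neutrophil-like cells, whose scaling factors were 0.455 to 0.553 against 0.724 to 1.34 in the other classes. CPM of neutrophil-like cells on this scale are therefore about 2 times their unscaled CPM, and the unscaled values are given beside them. The factors also differed by group, at 0.553 and 0.538 in BPTES replicates 1 and 2 and 0.455 and 0.473 in DMSO replicates 1 and 2. Gaps between the groups on this scale depend in part on these factors.

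**Figure D3:**
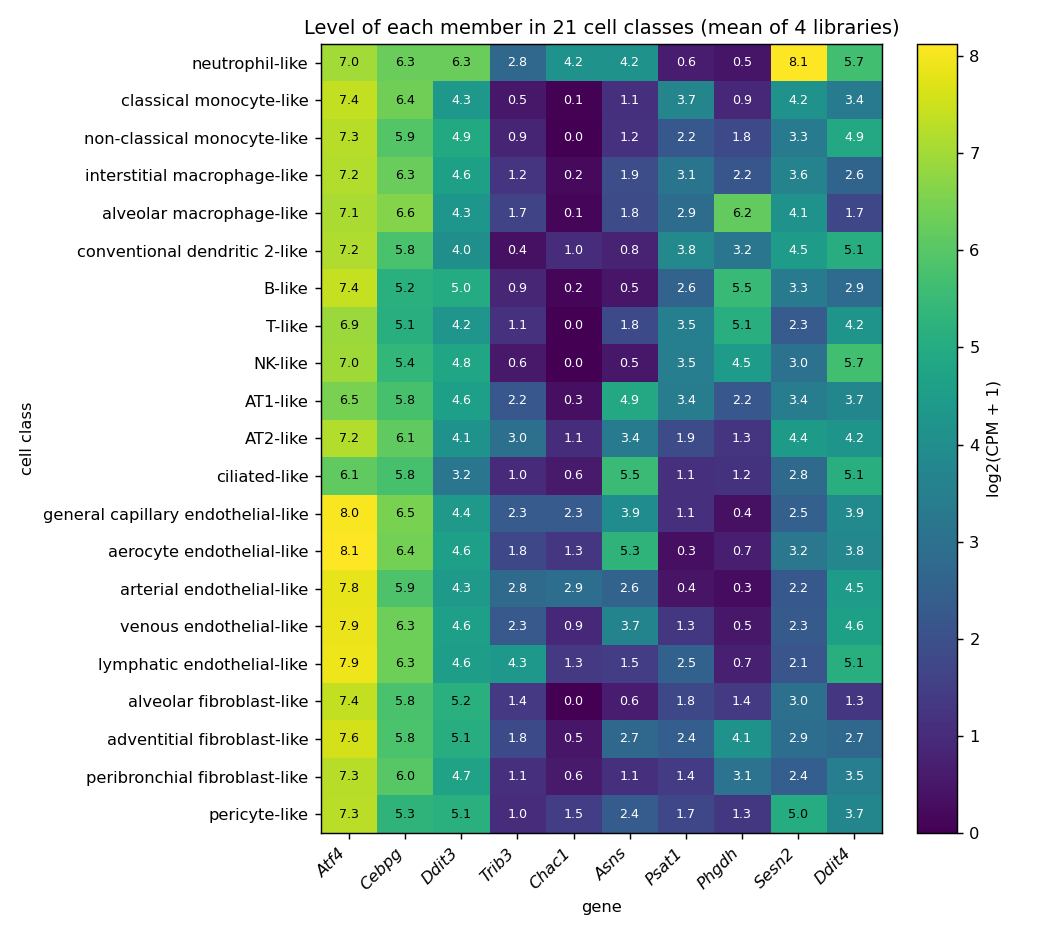
Mean level of the 10 genes (columns) in 21 cell classes (rows), as log2 of CPM scaled between classes plus 1, over 4 libraries. Atf4 and Cebpg are present in every class, while Trib3, Chac1, Asns, Psat1 and Phgdh are near 0 in many and high in a few.

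UMIs of the transcription factors were found in every class, and the share of RNA carried over from other cells was not estimated. Atf4 ranged 4.0-fold, from 69.6 ± 3.58 CPM in ciliated-like cells to 278 ± 12.0 CPM in aerocyte endothelial-like cells, the capillary cells that face the alveolus. All 5 endothelial classes stood at the top, between 224 and 278 CPM, each overlapping the next, followed by adventitial fibroblast-like cells at 195 ± 13.7 CPM. The lowest library of the latter was above the highest of the next class, B-like cells. Classical and non-classical monocyte-like cells held 166 ± 11.6 and 151 ± 12.1 CPM and overlapped.

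Cebpg varied the least, 2.85-fold, from 34.0 ± 0.703 CPM in T-like to 97.0 ± 17.3 CPM in alveolar macrophage-like cells. Every neighbour in its order overlapped the next. The alveolar macrophage-like class held 82, 110, 34 and 64 cells in BPTES replicates 1 and 2 and DMSO replicates 1 and 2. Among the unnamed clusters, outside the 21 classes, the highest Cebpg mean was 137 unscaled CPM (118 to 166 over the libraries). Ddit3 was lowest in ciliated-like cells (8.20 ± 1.97 CPM) and highest in neutrophil-like cells, at 79.6, 71.6, 69.4 and 87.2 CPM in BPTES replicates 1 and 2 and DMSO replicates 1 and 2. In unscaled CPM this first place was lost, since pericyte-like cells had 40.7 ± 8.69 and neutrophil-like cells 38.8 ± 5.32.

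Sesn2 marked the neutrophil-like cells. Its 4 libraries there stood at 223, 254, 333 and 282 CPM, in the same order, against 31.5 ± 8.82 CPM in pericyte-like cells, the next class, which is 8.67-fold less. Unscaled CPM kept this order without overlap, with 136 ± 11.8 against 37.3 ± 11.6. An unnamed cluster, outside the 21 classes, had 52.7 unscaled CPM of Sesn2 (45.3 to 55.5 over the libraries). Ddit4 was at 49.6 ± 2.36 CPM in neutrophil-like and 49.5 ± 10.1 CPM in NK-like cells and did not separate them. The unscaled values put NK-like cells first (56.7 ± 11.9 CPM). Alveolar fibroblast-like cells had the least Ddit4, 1.42 ± 0.428 CPM.

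The feedback and death genes were high in few classes. Chac1 was at 13.1 to 25.2 CPM in neutrophil-like cells, with BPTES replicate 1 the highest library, at 6.71 ± 1.31 CPM in arterial and 4.02 ± 0.180 CPM in general capillary endothelial-like cells, and under 1 CPM in 13 classes. In unscaled CPM the neutrophil-like (8.69 ± 3.59) and arterial (7.52 ± 1.62) values overlapped. Chac1 had 0 UMIs in NK-like and non-classical monocyte-like cells, which allows up to 0.316 and 0.0820 unscaled CPM (3 counts of the class total, counting error only).

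Trib3 was highest in lymphatic endothelial-like cells, at 19.3, 15.6, 21.8 and 19.4 CPM. AT2-like cells, which make surfactant, came next with 6.95 ± 2.09 CPM, and no library of theirs reached the lymphatic range. Classical monocyte-like cells were near the bottom with 0.443 ± 0.147 CPM.

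**Figure D4:**
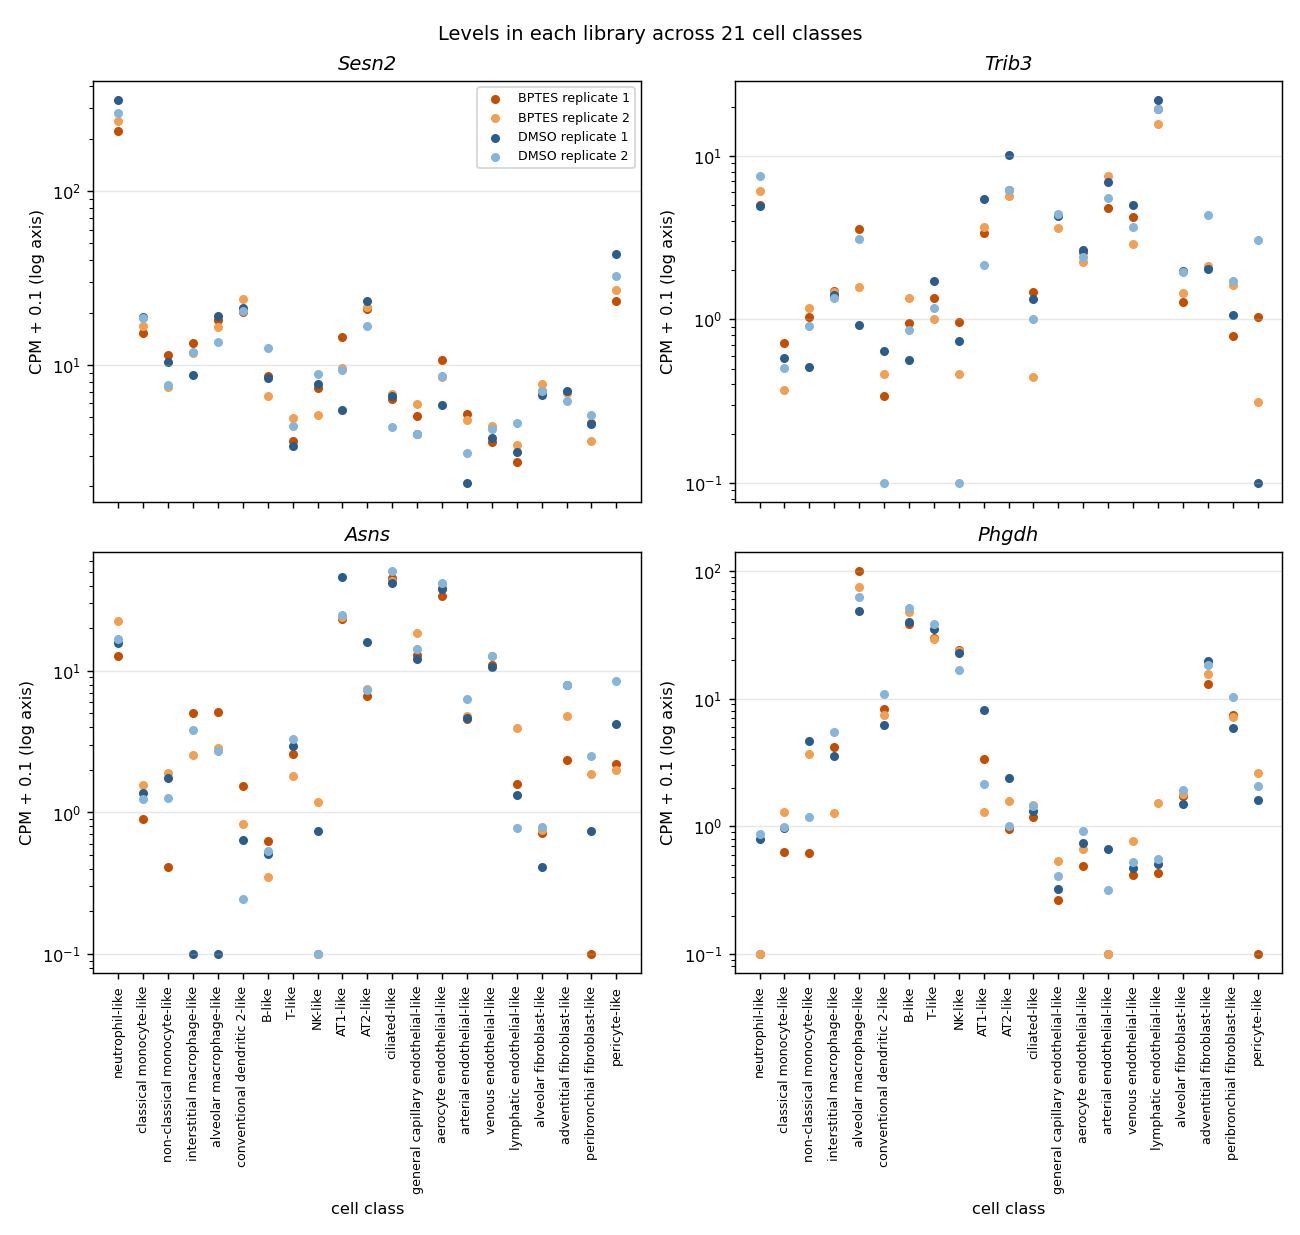
Levels of Sesn2, Trib3, Asns and Phgdh in each of 21 cell classes (horizontal axis), 1 point per library, as CPM scaled between classes plus 0.1 on a log axis. Sesn2 stands out in neutrophil-like cells (223 to 333 CPM), Trib3 in lymphatic endothelial-like cells (15.6 to 21.8 CPM), Asns in ciliated-like cells and Phgdh in alveolar macrophage-like and lymphoid cells.

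The amino acid enzymes differed in where they were found. Asns was at 45.5, 43.1, 41.8 and 50.3 CPM in ciliated-like cells, at 38.0 ± 3.28 CPM in aerocyte endothelial-like cells and at 29.3 ± 10.9 CPM in AT1-like cells. The ciliated and aerocyte ranges did not overlap, by a narrow margin. AT1-like cells were few and shallow, at 33 to 92 cells per library and medians of 3027.5 to 5997.5 UMIs. B-like cells had 0.406 ± 0.116 CPM of Asns and NK-like cells 0.431 ± 0.530 CPM.

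The serine pathway ran the other way. Phgdh was at 99.1, 74.8, 48.5 and 62.8 CPM in alveolar macrophage-like cells and at 44.1 ± 6.33, 33.1 ± 4.46 and 21.7 ± 3.39 CPM in B-, T- and NK-like cells. The alveolar macrophage-like class had only 34 to 110 cells per library. It was therefore not among the 19 classes fitted, and BPTES against DMSO was not tested there. Phgdh stayed at 0.284 ± 0.116 CPM in general capillary endothelial-like cells. Psat1 was at 13.2 ± 1.72 CPM in conventional dendritic 2-like and 11.9 ± 1.00 CPM in classical monocyte-like cells, which overlapped, and at 0.250 ± 0.0801 CPM in aerocyte endothelial-like cells. Classical monocyte-like cells thus had Psat1 near the highest of the 21 classes while Phgdh was at 0.873 ± 0.274 CPM. Plasma-like cells, 75 in all with 7 in DMSO replicate 1, were too few to be among these classes. With doublets kept they were included and held the highest Psat1, Phgdh and Chac1, and at resolution 2 the highest Phgdh.

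The members did not move together as 1 block over the classes. Among the 45 pairs Spearman's rho had a median of -0.03 over 21 classes, and 19 pairs were positive. The classes share the same 4 libraries and differ in depth, so these values are descriptions without a p. Psat1 and Phgdh had the highest rho, 0.70. Chac1, Trib3 and Asns, the 3 genes with the composite element printed above, had 0.61 (Trib3 and Chac1), 0.57 (Chac1 and Asns) and 0.57 (Trib3 and Asns). By Pearson's r of the same values these pairs had 0.56, 0.42 and 0.38, and Ddit3 with Sesn2 (rho 0.14) had 0.53. Chac1 was under 1 CPM in 13 of the classes, so much of its order lies near the floor. A part of the element in these values was not tested. Atf4 and Cebpg had 0.45. The lowest values set Chac1 and Asns against the serine pathway genes, with -0.70 for Chac1 and Phgdh, -0.65 for Chac1 and Psat1, and -0.59 for Asns and Psat1.

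**Figure D5:**
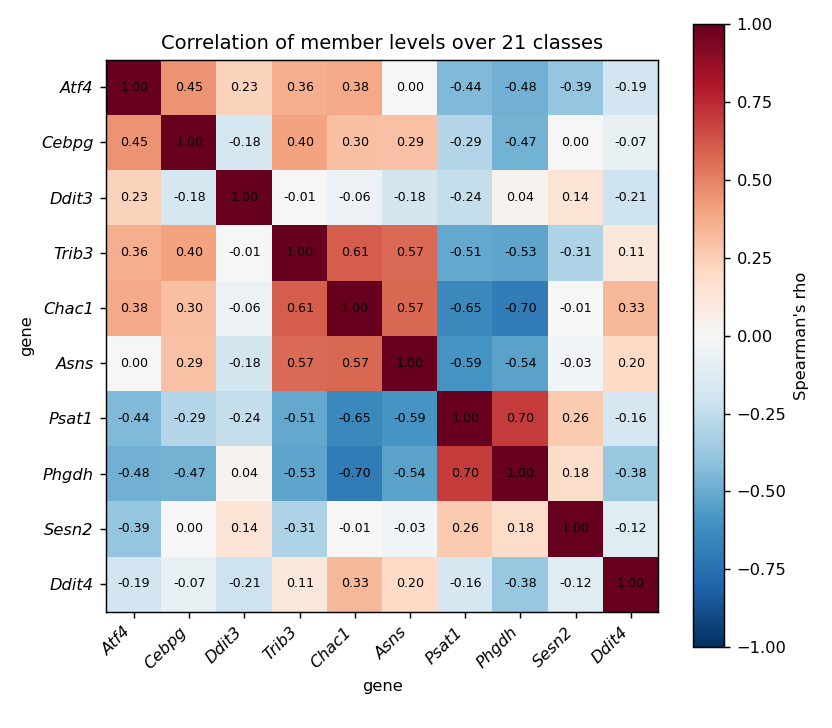
Spearman's rho of every pair of the 10 genes over 21 cell classes, from log2 of CPM scaled between classes plus 1, mean of 4 libraries. Positive blocks are seen for Trib3, Chac1 and Asns (0.57 to 0.61) and for Psat1 and Phgdh (0.70), with negative values between these blocks (down to -0.70).

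Within cells, joint detection was close to what the separate shares give. In classical monocyte-like cells thinned to 5000 UMIs, the number of cells with both Atf4 and Ddit3 was 1.08 to 1.29 times the product of their shares in the 4 libraries, and for Atf4 and Sesn2 it was 1.02 to 1.23 times. Atf4 with Cebpg gave 0.95 to 1.09 and Ddit3 with Cebpg 0.46 to 1.07, so neither pair was joined in every library. Over 118 combinations of class and pair with at least 5 joint cells expected in each library, 5 were above 1.05 in all 4 libraries. These were Atf4 with Ddit3 in classical monocyte-like and neutrophil-like cells, Atf4 with Sesn2 in AT2-like, Atf4 with Ddit4 in aerocyte endothelial-like and Atf4 with Asns in general capillary endothelial-like cells, chosen after their values were seen. At this depth the sparse counts make weak joint detection no finding.

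Genes with a like pattern over the classes were searched for 4 members. By Pearson's r of log2(CPM + 1) over the 21 classes, among 13956 genes of at least 10 CPM in some class, the genes close to Atf4 included Stat2 (0.88) and Ccny (0.86). Cebpg was most like Phf23 (0.82), Slc31a2 (0.82) and Sdcbp (0.80). Ddit3 was most like Rab11b (0.86), and Asns most like Magix (0.85). These are the top of a large search and are given as descriptions.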

How the data were processed

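Each library was deposited as 1 matrix of raw UMI counts per gene and cell barcode, made by the authors with Cell Ranger 8.0.1 per the file headers and aligned to mm10 per the submitters' processing notes. RefSeq coordinates and sequences on GRCm38.p6, the same assembly, were matched by symbol for all 10 genes. Cells needed 500 genes, 1000 UMIs and no more than 10% mitochondrial UMIs, and barcodes with the highest simulated-doublet scores were removed (0.4% per 1000 barcodes). Leiden clustering used igraph 0.11.9 (2000 variable genes, 40 principal components, 15 neighbours, resolution 1, seed 0), with no correction between libraries. Clusters were named by the highest marker score. Clusters stayed unnamed where the score missed 1.5, where under 3 markers reached 10% of cells, or where leading genes of another class or shallow cells stood against the name. These thresholds were set after clusters had been seen. No annotation by the authors was used, so a difference from the study may come from the rebuilt names.

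UMIs of a class were added up within each library. The 19 classes whose libraries all held 50 cells or more were fitted 1 by 1 in R 4.3.3 using edgeR 4.0.16 (TMM, filterByExpr, quasi-likelihood test, two-sided, Benjamini-Hochberg within the class). SEs are approximate, from the fold change and its F statistic. Differences between classes were tested as an interaction with library as block. DESeq2 1.42.0 was an alternative. On counts simulated at the levels of classical monocyte-like cells, 100% of genes changed 2-fold and 0.102% of unchanged genes were called. The simulation gave every gene the same spread between libraries and set changes only in the better expressed genes. Its shares therefore do not carry over to the members. The 4 libraries total 260346570 to 342107092 UMIs. Same-numbered libraries were checked for pairing: their deviations correlated between -0.146 and 0.353 by class, and with 2 pairs the numbers were treated as labels only.

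The members, gene lists and tests were chosen with earlier results of these data known. The text names the 10 members, pathway genes called in a class, up to 3 pathway genes per direction of at least 10 CPM in classical monocyte-like cells, up to 2 called genes per class of the chaperone and dissociation lists with their values, and genes among the 3 most like a member over classes, of which 1 is not reported here. Alternatives covered scaling, filter, doublets, mitochondrial limit, clustering, naming, the block and each library left out.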

Additional observations from a re-analysis of the deposited data

How the results depend on the processing

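Of 2200 values of a member in a class under 15 alternatives, 2032 kept their direction and side of the threshold, 11 passed it, 5 lost it and 152 changed sign, 87 of these with a library left out and 0 of them called. Among printed log2 fold changes, 12 of 450 changed sign. Phgdh in classical monocyte-like cells was -0.00826 with DESeq2, -0.0290 with the block and -0.0903 with doublets kept. With a library left out it ranged from -0.71 to 0.44, Asns there from -0.59 to 0.27 and Ddit4 there from -0.0492 to 0.87. Cebpg then ranged from -0.0136 to 0.0443 in T-like and from -0.11 to 0.25 in neutrophil-like cells, Trib3 from -1.07 to 0.0826 in adventitial fibroblast-like and Asns from -0.00904 to 0.53 in general capillary endothelial-like cells. Calls in classical monocyte-like cells (1) became 2 with no filter, 0 with doublets kept and 0 to 1 with a library left out. With the replicate block, which the labels do not tie to a shared animal or day, the count was 0 (Cebpg adjusted p = 0.149), and 1 over all classes (Cebpg in general capillary endothelial-like cells, adjusted p = 0.0142). A crossed block in B-like cells, chosen after seeing the data, called 0 members. Member calls over all classes (1) became 8 with no filter, 0 with doublets kept and 0 to 2 with a library left out. Pathway calls in classical monocyte-like cells (0) became 1 with DESeq2, 6 with no filter and 0 to 4 with a library left out. Over all classes (0) they became 14 with DESeq2, 58 with no filter, 27 with the block, 5 to 36 with a library left out, 2 at a mitochondrial limit of 5% and 1 at resolution 2. Chaperone and dissociation calls (10) became 51 with DESeq2, 153 with no filter, 64 with the block, 16 to 109 with a library left out, 0 with doublets kept, 23 at resolution 2 and 6 with names by score alone. Member differences between classes (0) became 4 with no filter and 0 to 1 with a library left out. The class of highest level held for 6 of 10 members with doublets kept and for 8 in unscaled CPM, chosen after seeing the data. The median rho (-0.03) ranged from -0.0741 to -0.0403 with a library left out and was 0.0051 at resolution 2 and 0.0367 with seed 1. The causes of these shifts were not tested. Trib3 had enough counts to be tested in 11 and Chac1 in 4 of the 19 classes.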

Other observations

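Atf5, a relative of Atf4 that is also translated more under stress, led 1 of the 6 unnamed clusters. In this cluster of 2629 shallow cells with alveolar fibroblast markers it stood at 736 CPM (613 to 840 over the 4 libraries), beside 4.41 to 32.6 CPM in the other unnamed clusters. Atf4 was at 137 CPM (117 to 153) and Cebpg at 78.9 CPM (58.8 to 98.8) there, without scaling between classes. Atf5 was among the genes that formed the cluster, so its level is a description.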
